A study of Mus musculus with 7 samples.

Results

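The Hedgehog pathway core genes described here are Gli1, Gli2, Gli3, Ptch1, Smo, Sufu, Hhip, Boc and Gas1. They were taken by symbol from the 34592 genes of the deposited count table, by a rule that names the genes and sets no threshold on a measured value. All 9 genes were found, and all 9 were among the 17389 genes that passed the filter on low counts and were tested. RNA was sequenced from 7 mouse Group 3 medulloblastomas (G3 MBs), 4 labelled WDR11OE and 3 controls. Every tumor came from 1 tumorsphere line, # 19568, which was derived from Trp53-/- Cdkn2c-/- cerebellar granule neuron progenitors carrying a Myc retrovirus. All 7 tumors therefore share the 2 deletions and the Myc transgene. For this line the paper's methods name GFP as the reporter of that retrovirus, and a figure caption of the paper names RFP. Tumorspheres were infected with a lentivirus that drives human WDR11 from the EF1 promoter or with the empty vector, which the sample labels list as no treatment. The infected cells were not sorted before they were implanted in the cortex of CD1 nu/nu mice, and pieces of the tumors were frozen at the moribund stage. A sample therefore holds host brain and stroma beside the transplanted cells, and with 1 line the tumors are not independent in origin.

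The human WDR11 transcript has its own entry in the count table, and it did not separate the groups. It held 73, 92 and 102 counts in control replicates 1, 2 and 3, and 185, 169, 99 and 57 counts in WDR11OE replicates 1, 2, 3 and 4. On the CPM scale, on which counts are brought to the same library total in every tumor, these were 2.03, 2.19 and 3.13 CPM in the controls and 4.38, 2.11, 3.05 and 0.624 CPM in the tumors labelled WDR11OE, with a log2 fold change of 0.05 (SE 0.58, adjusted p = 0.961). WDR11OE replicate 4 lay below every control, and replicates 2 and 3 lay within the range of the controls. Each direction given for the tumors labelled WDR11OE rests on the labels for this reason, and the study's other measures of WDR11 were not analysed here. Mouse Wdr11 lay between 58.3 and 59.3 CPM in the controls and between 61.0 and 68.9 CPM in the tumors labelled WDR11OE (log2 fold change 0.16, adjusted p = 0.0910). Total counts ran from 33417175 to 41397427 in the controls and from 32116095 to 87141305 in the tumors labelled WDR11OE, so that 3 counts, taken as the floor of detection, correspond to between 0.0329 and 0.0924 CPM. The labels number the control libraries and the WDR11OE libraries as separate runs of names, and an effect of the library series and an effect of the condition cannot be told apart. The 10 granule progenitor markers summed to 752 to 973 CPM in the controls and 708 to 761 CPM in the tumors labelled WDR11OE, with none called. Mki67 was the highest and made up most of that sum. The other 9 summed to 49.9 to 59.0 CPM in the controls and 47.8 to 101 CPM in the tumors labelled WDR11OE, which overlap. Among them, Atoh1 had no count in any tumor, and Barhl1 and Barhl2 lay under 1 CPM. The 10 genes set as G3 MB markers summed to 839.7 to 1135 CPM in controls and 297 to 443 CPM in tumors labelled WDR11OE. Nrl, Crx and Otx2 lay under 1 CPM, and 2 genes were called lower, Eya1 and Myc. Eya1 is not particular to G3 MB, and Mycn is also on the list of Hedgehog targets below. Myc was the highest and fell from a mean of 914 CPM to 347 CPM (adjusted p = 0.0023). Reads of the Myc transgene and of the endogenous gene were not told apart in this entry. Without Myc the other 9 summed to 26.3 to 27.5 CPM and 11.6 to 28.1 CPM, which overlap.

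Hedgehog ligands bind the receptor PTCH1, which otherwise holds the transmembrane protein SMO inactive. Active SMO at the primary cilium releases the GLI transcription factors from SUFU, so that full-length GLI2 activates targets and less GLI3 is cut into its repressor form. Gli1, Ptch1 and Hhip are themselves targets of the pathway, and the first is read as its output. Sonic Hedgehog drives the division of granule neuron progenitors in the developing cerebellum, and mutations of PTCH1, SMO and SUFU mark the SHH subgroup of medulloblastoma, whereas G3 MB is defined apart from that subgroup. WDR11 is a WD-repeat protein that has been tied to Hedgehog signaling.

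Lower levels of Gli2, Sufu, Hhip and Ptch1 were measured in the tumors labelled WDR11OE, and no core gene was called higher. Gli2 was 3.26-fold lower, Sufu 2.13-fold lower, Hhip 1.78-fold lower and Ptch1 1.32-fold lower. Gli1 stayed at 564 ± 38.5 CPM (SD, n = 3) in the controls and 504 ± 89.7 CPM (SD, n = 4) in the tumors labelled WDR11OE, which did not pass the test. A gene was called with an adjusted p under 0.05 in edgeR's two-sided quasi-likelihood test, adjusted over all genes tested. By this rule 4 of the 9 core genes were called lower, where 15.8% of all genes tested were. The call of Ptch1 was close to the threshold (adjusted p = 0.0479) and was lost under 14 of 19 alternative settings. Leaving out any 1 tumor left 3 of the 9 called lower. None of the 9 was called higher, where 18.1% of all genes tested were, and in either direction the background was 33.9%. The log2 fold change was below 0 for all 9, with a median of -0.40 beside a median of 0.08 over all genes tested, although that of Gli1 and Boc was above 0 with the trend on GC content removed. In whole tumors, fewer cells of a type and less RNA per cell cannot be told apart.

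**Figure D1:**
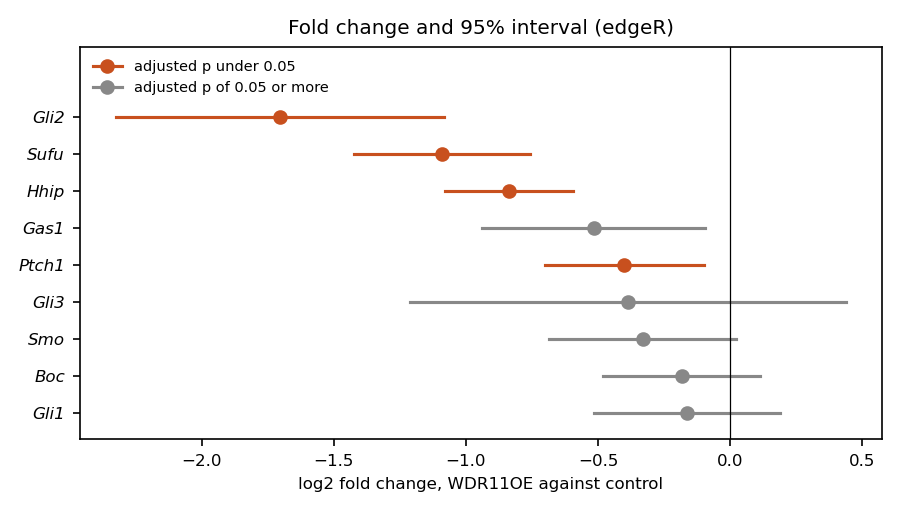
The log2 fold change of each of the 9 genes between the tumors labelled WDR11OE (n = 4) and the controls (n = 3) is plotted as a point with its 95% interval from edgeR, and orange marks an adjusted p under 0.05. Gli2, Sufu and Hhip lie farthest to the left at -1.70, -1.09 and -0.84, whereas the intervals of Gli3, Smo, Boc and Gli1 cross 0.

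Promoters of the 3 genes with the lowest adjusted p are shown because these genes were called under every alternative run. They were read from the RefSeq promoter table of GRCm38.p6, which holds 7 of the 9 core genes, and they run from 250 bases before to 50 bases after the start of the gene, 5′ to 3′ on the strand of the gene. Capitals mark ACCACCC, the core of the motif bound by GLI factors, or GGGCGG, a GC box, on either strand. The region of Gli2 is chr1:119053570-119053869 on the minus strand, that of Hhip is chr8:80057959-80058258 on the minus strand, and that of Sufu is chr19:46396646-46396945 on the plus strand.
Gli2: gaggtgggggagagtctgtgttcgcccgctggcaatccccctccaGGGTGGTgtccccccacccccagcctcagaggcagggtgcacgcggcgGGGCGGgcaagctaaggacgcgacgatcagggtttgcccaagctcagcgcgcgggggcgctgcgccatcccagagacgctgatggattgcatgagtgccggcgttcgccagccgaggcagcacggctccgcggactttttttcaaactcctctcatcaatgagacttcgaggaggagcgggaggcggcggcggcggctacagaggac
Hhip: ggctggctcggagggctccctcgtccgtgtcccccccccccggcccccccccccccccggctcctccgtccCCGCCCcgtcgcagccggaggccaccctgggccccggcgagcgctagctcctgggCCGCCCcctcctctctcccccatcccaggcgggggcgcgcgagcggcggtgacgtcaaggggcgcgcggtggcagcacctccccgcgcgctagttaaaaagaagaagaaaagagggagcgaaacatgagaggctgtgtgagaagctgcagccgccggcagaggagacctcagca
Sufu: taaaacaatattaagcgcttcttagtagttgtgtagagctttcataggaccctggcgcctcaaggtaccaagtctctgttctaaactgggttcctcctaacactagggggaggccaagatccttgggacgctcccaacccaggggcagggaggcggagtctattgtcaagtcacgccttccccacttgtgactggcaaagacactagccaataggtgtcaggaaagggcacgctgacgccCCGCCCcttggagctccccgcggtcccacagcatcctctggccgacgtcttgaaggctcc
The core ACCACCC was found in 1 of the 7 core promoters, that of Gli2, where it starts at base 46 on the opposite strand, and in 4.61% of 32851 promoters of the same length. The full motif GACCACCCA, which contains that core, was found in 0 of the 7, against 0.253% of all promoters. The GC box was found in 6 of the 7, all but that of Smo, against 35.7% of all promoters. The GC content of the 3 promoters was 67.3% for Gli2, 73.7% for Hhip and 56.3% for Sufu, beside a median of 52.7% over all promoters. These matches are a description of the letters only.

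The receptor and the proteins that bind the ligand were examined first. Ptch1 (ENSMUSG00000021466, mm9 chr13:63610261-63674474, minus strand), the receptor, was measured at 1482, 1646 and 1613 CPM in control replicates 1, 2 and 3. In WDR11OE replicates 1, 2, 3 and 4 it was measured at 1169.7, 1343, 1271 and 1004 CPM. Every tumor labelled WDR11OE lay below every control, and the lowest was replicate 4. Ptch1 had a log2 fold change of -0.40 (SE 0.13, adjusted p = 0.0479), and the two-sided exact permutation test over the 35 ways to split the 7 tumors gave p = 0.0571. This call was close to the threshold, since it was lost under 14 of 19 alternatives, including the removal of any 1 tumor, with an adjusted p between 0.0043 and 0.213 over all 19.

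Hhip (ENSMUSG00000064325, mm9 chr8:82490014-82581905, minus strand), a membrane decoy that binds and holds back the ligand, was measured at 368, 381 and 439 CPM in control replicates 1, 2 and 3. In WDR11OE replicates 1, 2, 3 and 4 it was measured at 203, 214, 253 and 217 CPM. The groups lay far apart, with the highest tumor labelled WDR11OE below the lowest control. Hhip had a log2 fold change of -0.84 (SE 0.10, adjusted p = 0.0015), and the exact permutation test gave p = 0.0286, the smallest it allows for 4 against 3. The level in the tumors labelled WDR11OE was 56.0% of that in the controls.

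Gas1 and Boc encode coreceptors that help PTCH1 bind the ligand. Gas1 (ENSMUSG00000052957, mm9 chr13:60275766-60278726, minus strand) was measured at 3.17, 4.22 and 3.62 CPM in control replicates 1, 2 and 3 and at 2.30, 2.78, 2.56 and 2.62 CPM in WDR11OE replicates 1, 2, 3 and 4. Although these groups did not overlap, the log2 fold change of -0.52 (SE 0.18) missed the threshold with an adjusted p = 0.0632, and it passed with DESeq2 (-0.56, adjusted p = 0.0258). Without overlap in the lower direction were 5 of the 9 core genes, Gli2, Sufu, Hhip, Ptch1 and Gas1, where 19.1% of all genes tested were, and none was apart in the higher direction, where 23.5% were. Boc (ENSMUSG00000022687, mm9 chr16:44485158-44559010, minus strand) was measured at 36.2, 32.9 and 37.4 CPM in the controls and at 33.7, 34.8, 31.8 and 24.8 CPM in the tumors labelled WDR11OE. Its groups overlapped, and the log2 fold change of -0.18 (95% interval -0.48 to 0.11, adjusted p = 0.316) was above 0 at 0.01 with the GC trend removed.

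**Figure D2:**
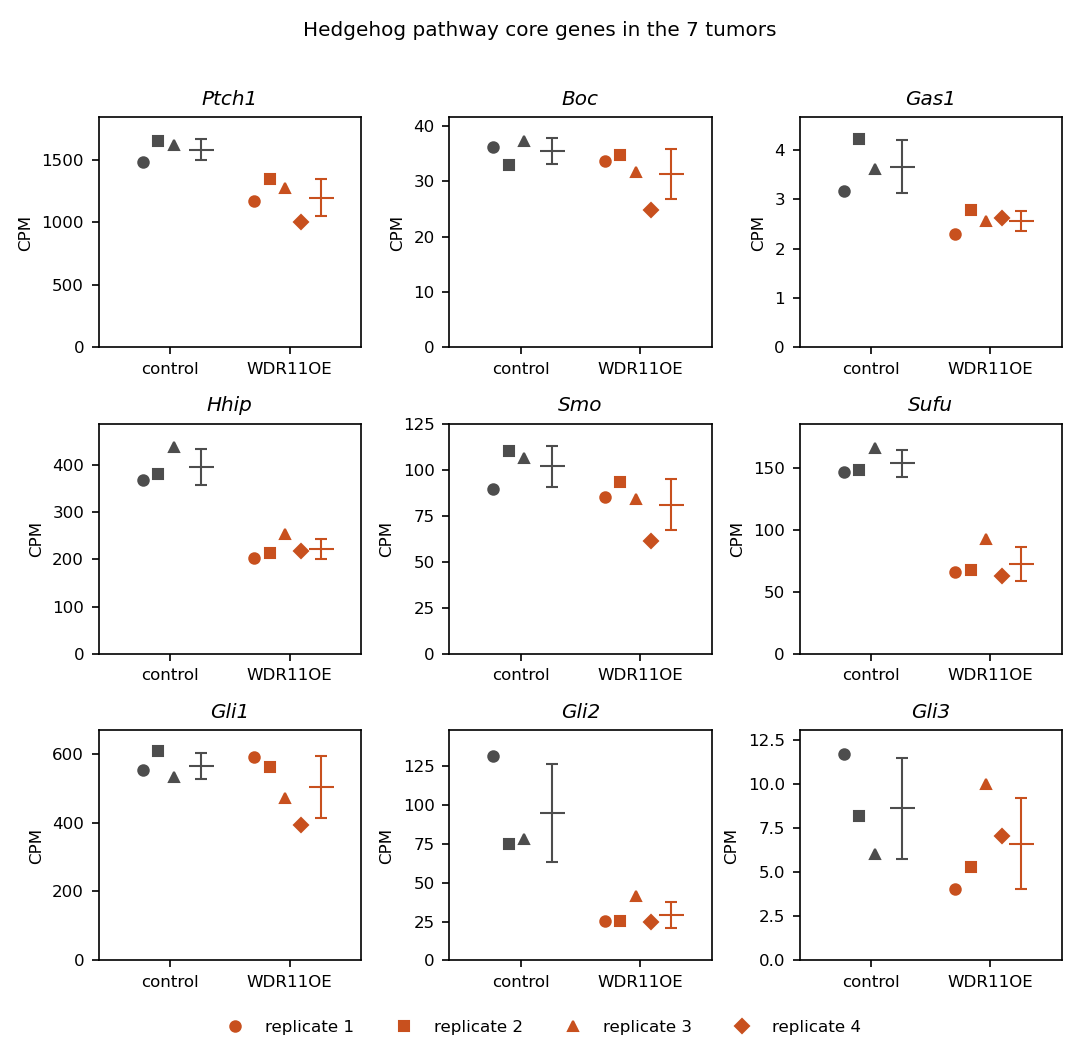
Each panel plots the CPM of 1 core gene on an axis that starts at 0, with 1 point per tumor (grey for the 3 controls, orange for the 4 tumors labelled WDR11OE, and 1 shape per replicate number) and the mean with its SD at the right of each group. The groups are apart in Ptch1, Gas1, Hhip, Sufu and Gli2, and WDR11OE replicate 4 is the lowest tumor for Ptch1, Boc, Smo, Sufu, Gli1 and Gli2.

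The transducers below the receptor differed in how far they fell. Sufu (ENSMUSG00000025231, mm9 chr19:46471386-46563294, plus strand), which holds the GLI factors in the cytoplasm, was measured at 147, 148 and 167 CPM in control replicates 1, 2 and 3. In WDR11OE replicates 1, 2, 3 and 4 it was measured at 66.1, 67.6, 92.8 and 62.9 CPM. The groups did not overlap, and WDR11OE replicate 3 stood above the other tumors of its group. Sufu had a log2 fold change of -1.09 (SE 0.14, adjusted p = 0.0017, exact permutation p = 0.0286). Smo (ENSMUSG00000001761, mm9 chr6:29685694-29711365, plus strand), the transmembrane transducer, was measured at 89.6, 110.3 and 107 CPM in the controls and at 85.7, 93.8, 84.3 and 61.3 CPM in the tumors labelled WDR11OE. Only WDR11OE replicate 2 overlapped with the controls, and the log2 fold change of -0.33 (95% interval -0.68 to 0.02) did not pass the test (adjusted p = 0.134). It passed when the summed level of neuron markers entered the fit as a covariate (-0.42, adjusted p = 0.0140), and it came to -0.06 with the GC trend removed.

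The GLI factors moved by different amounts. Gli2 (ENSMUSG00000048402, mm9 chr1:120730709-120950196, minus strand), the main activator of the pathway, was measured at 131, 74.8 and 78.4 CPM in control replicates 1, 2 and 3. In WDR11OE replicates 1, 2, 3 and 4 it was measured at 25.3, 25.6, 41.4 and 24.4 CPM. Control replicate 1 stood above the other controls and WDR11OE replicate 3 above its group, yet the groups did not overlap. Gli2 had a log2 fold change of -1.70 (SE 0.26, adjusted p = 0.0033, exact permutation p = 0.0286), and it came to -1.40 (adjusted p = 0.0077) without control replicate 1. With Sufu, it made 2 of the 9 core genes that were called lower by at least 2-fold with an average above 1 CPM, where 3.43% of all genes tested were, and none was higher by as much, where 2.38% were.

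Gli1 (ENSMUSG00000025407, mm9 chr10:126766945-126778645, minus strand), the amplifier and readout of the pathway, was measured at 553, 607 and 533 CPM in control replicates 1, 2 and 3. In WDR11OE replicates 1, 2, 3 and 4 it was measured at 591, 560.1, 472 and 393 CPM. The groups overlapped, since replicates 1 and 2 labelled WDR11OE lay among the controls and replicates 3 and 4 lay below them. The log2 fold change was -0.16 (95% interval -0.51 to 0.19, adjusted p = 0.453), and it was above 0 at 0.14 (adjusted p = 0.500) with the GC trend removed. The exons of Gli1 share 55 bases with Arhgap9 on the opposite strand, and since the strand setting of the counting is not given in the sources used here, reads in that stretch may belong to either gene.

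Gli3 (ENSMUSG00000021318, mm9 chr13:15555068-15821859, plus strand), whose protein serves mainly as the repressor, was measured at 11.7, 8.18 and 6.01 CPM in the controls and at 4.03, 5.31, 9.98 and 7.06 CPM in the tumors labelled WDR11OE. The groups overlapped, and the spread was the widest of the core genes relative to the mean in the tumors labelled WDR11OE, with a coefficient of variation of 39.1%. The log2 fold change was -0.39 (95% interval -1.21 to 0.44, adjusted p = 0.446), and it came to -0.11 without control replicate 1 and -0.66 without WDR11OE replicate 3. The sum of 10 neuron markers lay between 75.4 and 456 CPM in the controls and between 13.4 and 701 CPM in the tumors labelled WDR11OE, with none of the 10 called, none at 0 and Gad1 the highest. With that sum as a covariate the log2 fold change of Gli3 was -0.20 (adjusted p = 0.518).

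**Figure D3:**
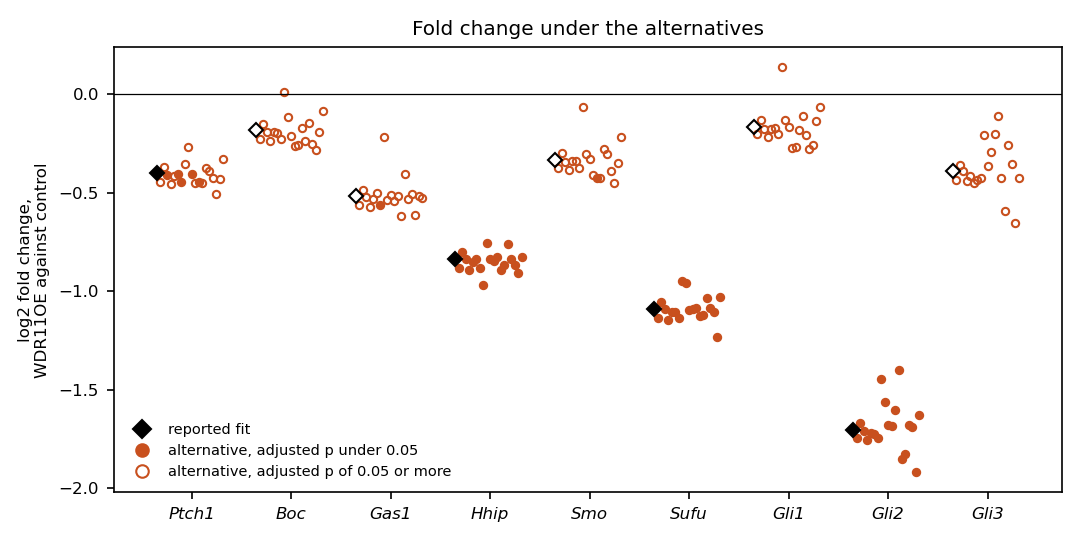
The log2 fold change of each core gene is plotted under the reported fit (black diamond) and under 19 alternatives of scaling, filter, test, correction and left-out tumor (orange), with filled symbols for an adjusted p under 0.05. Gli2, Sufu and Hhip stay filled and below 0 under every alternative run, Ptch1 is mostly open, and Gli1 and Boc cross 0 under the removal of the GC trend.

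Levels were compared between genes on the TPM scale, which divides counts by exon length before they are brought to a common total. Ptch1 was the highest core gene, with a mean level of 243 TPM in the controls and 213 TPM in the tumors labelled WDR11OE, and ranked 260th of 17125 genes by mean level. Gli1 followed at 150.5 and 155 TPM, rank 368, so that its mean TPM was higher in the tumors labelled WDR11OE although its mean CPM was lower. Hhip came next at 81.9 and 53.4 TPM, and Smo at 27.3 and 25.0 TPM. Sufu changed from 22.5 to 12.3 TPM and Gli2 from 14.2 to 5.01 TPM, so that Gli2 lay above Boc (8.09 TPM) in the controls and below Boc (8.18 TPM) in the tumors labelled WDR11OE. The 2 lowest were Gas1 at 1.24 and 1.02 TPM and Gli3 at 0.916 and 0.820 TPM. Of neighbours in this order, Sufu and Gli2 overlapped in the controls, at 19.5 to 25.0 TPM and 9.96 to 20.7 TPM, but not in the tumors labelled WDR11OE. The levels of Gas1 and Gli3 overlapped in both groups, and no other neighbours overlapped within a group.

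**Figure D4:**
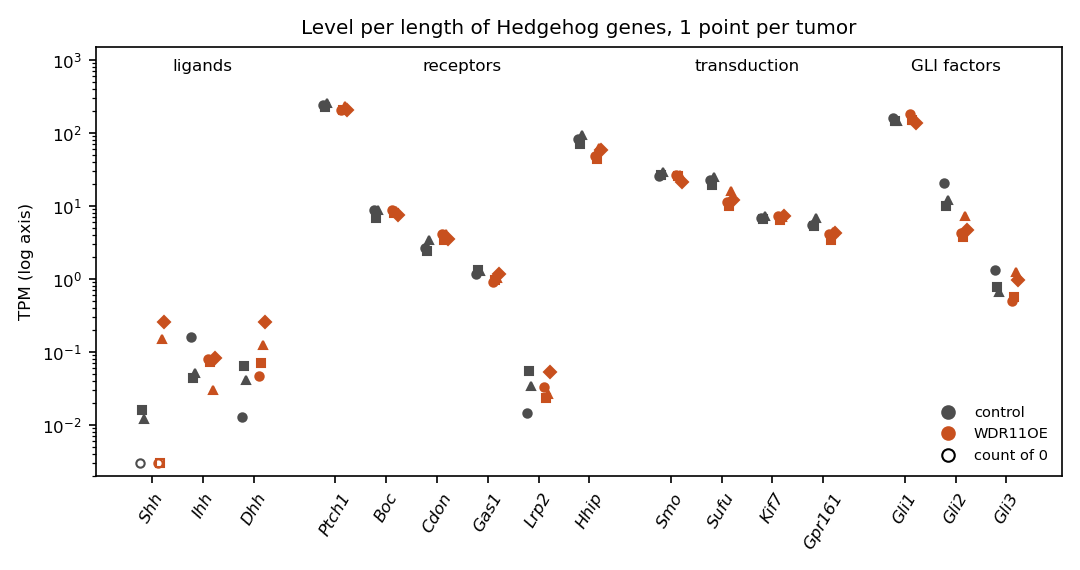
The TPM of the ligands, receptors, transducers and GLI factors is plotted on a log axis with 1 point per tumor, grey for the controls and orange for the tumors labelled WDR11OE, and open symbols at the bottom stand for a count of 0. Ptch1, Gli1 and Hhip lie highest, and the 3 ligands lie below every core gene.

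The balance between core genes was then compared within each tumor, as the log2 ratio of counts per kb of exon. The ratio of Gli1 to Gli2 was 2.93, 3.88 and 3.62 in control replicates 1, 2 and 3 and 5.41, 5.31, 4.37 and 4.87 in WDR11OE replicates 1, 2, 3 and 4. These groups did not overlap, and the mean differed by 1.51, which is a ratio of 11.2 in the controls and 31.8 in the tumors labelled WDR11OE on the linear scale (two-sided exact permutation p = 0.0286, adjusted over 4 ratios 0.0381). The ratio of Gli3 to Gli2 was -3.97, -3.67 and -4.19 in the controls and -3.13, -2.75, -2.53 and -2.27 in the tumors labelled WDR11OE, a difference of 1.27 (exact permutation p = 0.0286, adjusted 0.0381). In both ratios the tumors labelled WDR11OE held less Gli2 relative to its partner. The ratio of Sufu to Gli2 differed by 0.58 (exact permutation p = 0.0286, adjusted 0.0381), with controls at 0.15, 0.97 and 1.07 and the tumors labelled WDR11OE at 1.37, 1.38, 1.15 and 1.35. Without control replicate 1 that difference was 0.29. The ratios to Gli2 share its level, so they are not independent of each other or of the lower level of Gli2. Their p of 0.0286 is the smallest that the permutation test allows. The ratio of Ptch1 to Smo, the receptor and the protein it holds back, was 3.15 ± 0.08 (SD, n = 3) and 3.09 ± 0.11 (SD, n = 4), and the groups overlapped (exact permutation p = 0.371). With the GC trend removed, the ratio of Gli3 to Gli2 and that of Sufu to Gli2 gave an exact permutation p = 0.0571, and that of Ptch1 to Smo differed by -0.29 (p = 0.0286).

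Across the 7 tumors the core genes differed in which others they followed. These correlations of log2 CPM are over 7 points that share the group difference and the scaling, and they are given as a description. Hhip and Sufu were most alike (r = 0.989), followed by Gli2 and Sufu (r = 0.947) and by Ptch1 and Smo (r = 0.936). Gli1 was most like Smo (r = 0.834), Boc was most like Smo (r = 0.845), and Gas1 was most like Hhip (r = 0.875). Gli2, Hhip and Sufu separated the groups while Gli1, Boc and Smo did not, and Gli1 and Gli2 were at r = 0.36. Gli3 was most like Gli2 at only r = 0.655. A wider search covered the 14815 genes tested with an average log2 CPM above 0. In it, the profile of Gli2 was most like that of Daam2 (r = 0.998), Creb3l1 (r = 0.996) and Ndst1 (r = 0.995). That of Gli1 was most like Wnt4 (r = 0.977), Rsph3b (r = 0.973) and Wnt9a (r = 0.971), and that of Ptch1 most like Tnfrsf10b (r = 0.991), ORF61 (r = 0.987) and Slc25a38 (r = 0.987).

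The genes around the core were examined as a list of 45, of which 44 were in the count table and 41 were tested. By the same rule 16 were called lower and 4 higher, where 15.8% of all genes tested were called lower and 18.1% higher, a background that holds for each role below as well. The median log2 fold change was -0.23, beside 0.08 over all genes tested. The ligands were low. Shh had 0 to 2 counts in the controls and 0, 0, 11 and 47 counts in WDR11OE replicates 1, 2, 3 and 4. With the library totals taken into account, these were 0 to 0.0477 CPM and 0, 0, 0.339 and 0.515 CPM. Neither Ihh nor Dhh exceeded 0.449 CPM in any tumor. None of the 3 ligands passed the filter. Among 4 genes of ligand release and processing, Disp1, which releases the ligand from the cell, fell from 11.0 CPM in each control to between 5.51 and 6.21 CPM in the tumors labelled WDR11OE (log2 fold change -0.90, adjusted p = 0.0019). Hhat, the acyltransferase of the ligand, had a log2 fold change of -0.68 (adjusted p = 0.0612).

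Neither of 2 further coreceptors and receptors was called. Cdon, a coreceptor related to Boc, had a log2 fold change of 0.23 (adjusted p = 0.272), and Lrp2, a large endocytic receptor, had -0.32 (adjusted p = 0.663).

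Among 11 ciliary regulators, 5 were called lower and 1 higher, beside the 15.8% and 18.1% of all genes tested. Tulp3, which carries receptors into the cilium, fell from a mean of 50.3 to 26.4 CPM (log2 fold change -0.93, adjusted p = 0.000917). Gpr161, a ciliary receptor that holds the pathway off, fell from 17.8 to 10.5 CPM (log2 fold change -0.77, adjusted p = 0.0040). Efcab7, which anchors the EVC complex in the cilium, rose from 8.91 to 16.9 CPM (log2 fold change 0.92, adjusted p = 0.0013, and 0.60 with the GC trend removed). Kif7, a ciliary kinesin of the pathway, had a log2 fold change of -0.20 (adjusted p = 0.121), which was above 0 at 0.14 with the GC trend removed. Stk36, the fused kinase homolog, had a log2 fold change of -0.41 (adjusted p = 0.0657).

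Of 14 kinases, 9 were called lower and none higher, beside the 15.8% and 18.1% of all genes tested. Prkaca, the catalytic subunit of protein kinase A that primes GLI2 and GLI3 for processing, fell from 60.5 to 30.8 CPM (log2 fold change -0.97, adjusted p = 0.0011). Gsk3a, which adds to that phosphorylation, fell from 53.0 to 35.9 CPM (log2 fold change -0.56, adjusted p = 0.0017), a call that was lost with the GC trend removed (-0.22, adjusted p = 0.0750). Of 8 genes of GLI turnover, 1 was called lower and 3 higher, beside the same 15.8% and 18.1%. Cul1, the scaffold of the ligase that recognises phosphorylated GLI, rose from 108 to 164 CPM (log2 fold change 0.59, adjusted p = 0.0016), and Itch, a ligase of GLI1, rose from 85.8 to 109 CPM (log2 fold change 0.35, adjusted p = 0.0052), although with the GC trend removed its log2 fold change was 0.00068 (adjusted p = 0.995). The arrestins Arrb1 and Arrb2 had log2 fold changes of 0.05 and 0.03 and were not called.

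**Figure D5:**
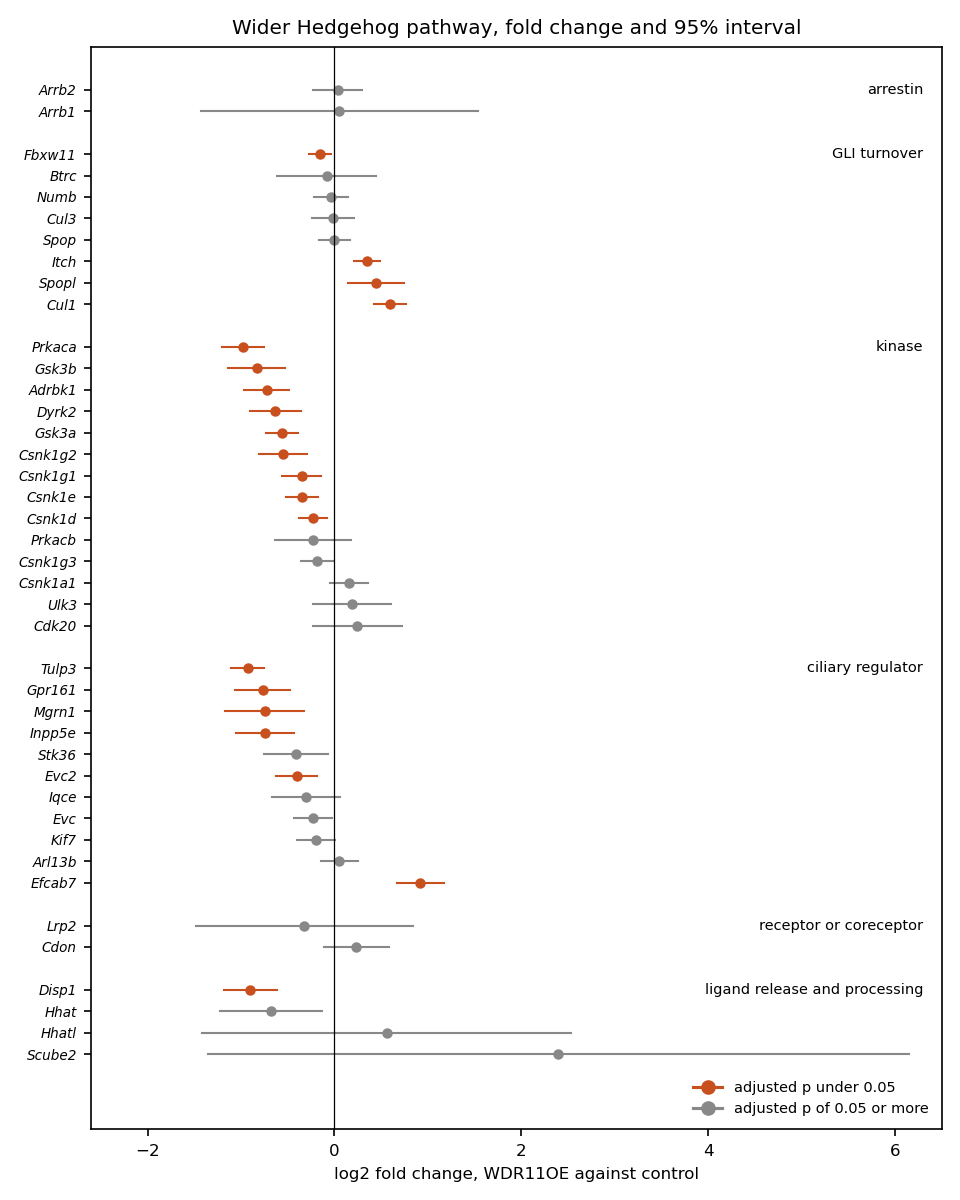
The log2 fold change of the 41 tested genes around the core is plotted with its 95% interval from edgeR, grouped by role, and orange marks an adjusted p under 0.05. Of these, 16 lie to the left and 4 to the right as called genes, and the called kinases all lie to the left.

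Genes that Hedgehog signaling is known to activate in various tissues formed a list of 19, of which 18 were tested, 11 were called lower and 1 was called higher, beside 15.8% and 18.1% of all genes tested. Its median log2 fold change was -0.72. Foxf2, a forkhead factor of mesenchyme, was measured at 54.3, 83.2 and 84.4 CPM in control replicates 1, 2 and 3 and at 12.5, 11.5, 12.8 and 10.7 CPM in WDR11OE replicates 1, 2, 3 and 4 (log2 fold change -2.64, adjusted p = 0.000858). Every tumor labelled WDR11OE lay below every control. Its relative Foxf1 had a log2 fold change of -0.82 (adjusted p = 0.0372), with groups that overlapped, and its call was lost under 7 of 19 alternatives (adjusted p up to 0.208), among them the removal of control replicate 2 or 3 or WDR11OE replicate 1, 2 or 3 (-0.96 to -0.66) and of the GC trend (-0.42). Snai1, a factor of epithelial to mesenchymal transition, fell from 30.7 to 9.68 CPM (log2 fold change -1.67, adjusted p = 0.0019). Of the cell cycle targets, Ccnd2 fell from 342 to 129 CPM (log2 fold change -1.41, adjusted p = 0.0015) and Foxm1 from 64.3 to 33.1 CPM (log2 fold change -0.96, adjusted p = 0.0011). Ccnd1 had a log2 fold change of -0.46 that missed the threshold (adjusted p = 0.0618). Sfrp1, a secreted WNT antagonist, fell from 10.9 to 4.65 CPM (adjusted p = 0.0090), and Bcl2, which restrains cell death, from 31.0 to 16.7 CPM (log2 fold change -0.89, adjusted p = 0.0199). The call of Bcl2 was lost without control replicate 1 (-0.66, adjusted p = 0.0580) and without WDR11OE replicate 3 (-0.88, adjusted p = 0.0525). Mycn, a target in granule progenitors, was between 0.306 and 2.30 CPM in all tumors and was not called (log2 fold change 0.82, adjusted p = 0.348). The 1 gene called higher was Bmi1, a Polycomb factor, at 94.3 and 111 CPM (log2 fold change 0.23, adjusted p = 0.0213), which was named after its values were seen. The other 4 called lower were Foxl1, Pdgfra, Runx2 and Nkx2-2, named likewise, of which Foxl1 and Pdgfra are known from mesenchyme and Runx2 from bone.

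Some markers of other cell types moved with the groups beside these results. The 10 mesenchyme markers summed to 3555 to 4399 CPM in the controls and 1478 to 1887 CPM in the tumors labelled WDR11OE. Of these, 3 of 10 were called lower, where 15.8% of all genes tested were, with none at 0 and Col3a1 the highest. Col3a1 was the largest part of the gap between the sums. The other 9 markers summed to 628 to 1677 CPM in the controls and 394 to 653 CPM in the tumors labelled WDR11OE, which overlap. Pdgfrb and Fbn1 were also called lower (adjusted p = 0.0086 and 0.0048). Of the 10 markers, 4 lay apart in the lower direction, where 19.1% of all genes tested did, and 3 had a log2 fold change above 0. The 10 endothelium markers summed to 176 to 226 CPM in the controls and 118 to 149.7 CPM in the tumors labelled WDR11OE. Of these, 3 of 10 were called lower, where 15.8% of all genes tested were, with none at 0 and Vwf the highest. Pecam1, Tek and Slco1a4 had log2 fold changes above 0, at 0.12, 0.02 and 0.52, and were not called. Col3a1, Pdgfrb, Fbn1 and the endothelium sum were lower in the same tumors as Gli2, Hhip, Sufu and the forkhead genes. The mesenchyme markers Dcn, Lum and Tagln went the other way, with log2 fold changes of 1.05, 0.46 and 0.14, and were not called. The part of mesenchyme and endothelium cells in these results was not tested. The 10 muscle markers summed to 3.52 to 5.84 CPM in the controls and 47.0 to 139 CPM in the tumors labelled WDR11OE. Of these, 9 of 9 tested were called higher, where 18.1% of all genes tested were, with Myh2 under 1 CPM and Myh4 the highest. The part of muscle cells was likewise not tested. For 10 astrocyte markers the sum was between 693 and 975 CPM in the controls and between 412 and 1130 CPM in the tumors labelled WDR11OE, where Slc1a2 was the highest, Sox9 was called lower, S100b was called higher and none was at 0. The oligodendrocyte sum was 173 to 424 CPM in the controls and 166 to 368 CPM in the tumors labelled WDR11OE, and the microglia sum 154 to 282 CPM and 131 to 247 CPM, with no marker of either list called or at 0. Mbp and C1qa were the highest of these lists.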

How the data were processed

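Total RNA, which the labels say was taken from tumor chunks, was sequenced by the authors. They mapped the reads to NCBIM37.67 (mm9 in the labels) and deposited raw counts per gene from HT-seq on a GENCODE annotation, without normalization, and the submitters' processing notes also name CASAVA 1.7, STAR and BWA. The paper describes total stranded RNA sequencing and the labels a TruSeq RNA v2 kit, and the strand setting of the counting is not given in the sources used here. The deposited counts were filtered with filterByExpr and scaled by TMM, and the quasi-likelihood test of edgeR 4.0.16 (two-sided) was run in R 4.3.3 with the condition as the only term and Benjamini-Hochberg adjustment over 17389 genes. limma 3.58.1 with voom, the method of the paper, and DESeq2 1.42.0 were alternatives, as were other scalings and filters, loess corrections for GC content and exon length, thinning, the sum of WDR11OE replicates 1 and 2, and leaving out each tumor.

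CPM was computed on TMM-scaled library sizes, and TPM on the union of exons of GENCODE on NCBIM37, which matched 97.1% of genes. Correlations used log2 CPM with a prior count of 2, and ratios used counts per kb. Ligands, the receptors Cdon and Lrp2, the ciliary genes Kif7, Gpr161 and Stk36, the genes with the smallest p in each other role and 8 set targets were named, with the targets of smallest p beside them. The genes of highest correlation with Gli1, Ptch1 and Gli2 and the highest marker of each list were also named. Items withheld from the text are not reported here, and counts over the pathway list are without them. The members and lists were chosen with earlier results of these data known. Replicate numbers are names only. The labels give separate samples of 1 line, so p-values measure the spread between these tumors, and floors cover counting error only, as no molecular identifiers were used. WDR11OE replicates 1 and 2, whose titles share a number, had the highest correlation (r = 0.993) and differed by more than sampling noise (chi-square per degree of freedom 22.6), so they are not 1 library deposited again. Whether they come from 1 animal was not tested, and they were kept as 2 samples, with their sum as an alternative. On simulated data for 17176 genes, the fit recovered 61% of 200 genes changed by a log2 fold change of 1.5, and 6.15% of its calls were false. Fold changes of all protein-coding genes tested fell with exon GC content (Spearman's rho -0.35 across genes, which are not independent replicates).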

Additional observations from a re-analysis of the deposited data

Results flagged for a closer look

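Of 52 sets of 4 values from the tumors labelled WDR11OE, 3 had a highest or lowest tumor set apart from the others by Dixon's criterion, which chance gives in about 1 set in 20. WDR11OE replicate 3 stood above its group in Gli2, at 41.4 CPM beside a nearest value of 25.6 CPM. The same tumor stood above its group in Sufu, at 92.8 CPM beside 67.6 CPM. Its log2 ratio of Sufu to Gli2 was the lowest of the group, at 1.15 beside 1.35. Without WDR11OE replicate 3 the log2 fold change was -1.92 for Gli2 and -1.23 for Sufu, and both were still called.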

How the results depend on the processing

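Between 3 and 5 core genes were called lower over 19 alternatives, and 3 when any 1 tumor was left out. Of all genes, 2744 of 17389 tested were called lower in the reported fit. Over the alternatives, 2011 to 3504 were called lower, and 2011 to 2868 with 1 tumor left out. The number tested ran from 14822 to 26417. Gli2 (log2 fold change -1.92 to -1.40), Hhip (-0.97 to -0.75) and Sufu (-1.23 to -0.95) were called under all 19. Ptch1 was not called with DESeq2 size factors (-0.44), the upper quartile (-0.37), no filter (-0.45), a filter of 1 CPM in 3 tumors (-0.41), the GC trend removed (-0.35), the length trend removed (-0.27), replicates 1 and 2 labelled WDR11OE summed (-0.45), or any 1 tumor left out (-0.51 to -0.33). Gas1 passed with DESeq2 (-0.56), and Smo passed with the neuron markers as a covariate (-0.42), an alternative chosen after seeing the data. With the GC trend removed, Gli1 (0.14), Boc (0.010) and Kif7 (0.14) turned above 0, 2 genes around the core were called higher, and the ratios of Gli3 to Gli2 (0.97), Sufu to Gli2 (0.46) and Ptch1 to Smo (-0.29) changed side of the threshold. The causes were not tested.

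The count of all genes called higher was 3150, and it was 2093 with no filter, 1629 with the 2 tumors summed and 1560 to 2986 with 1 tumor left out. Higher by 2-fold were 413, and 624 with the neuron covariate. The called-higher target Bmi1 was not called (0 of 18) with DESeq2 size factors, no filter, a 1 CPM filter, the GC trend removed, the 2 tumors summed, or without control replicate 1 or 2 or WDR11OE replicate 1, 2 or 3 (0 to 1).

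Arrb1 was below 0 with DESeq2 size factors (-0.021), no filter (-0.022), a 1 CPM filter (-0.0061), limma-voom (-0.31) and DESeq2 (-0.023), and -0.76 to 0.23 with 1 tumor left out. Arrb2 was below 0 with DESeq2 size factors (-0.013), no filter (-0.024), DESeq2 (-0.012), thinned counts (-0.0099) and the 2 tumors summed (-0.00041), and -0.068 to 0.10 with 1 tumor left out. Lrp2 ranged from -0.72 to 0.30 with 1 tumor left out.

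The median log2 fold change of all genes moved from 0.08 to 0.12 with the upper quartile and to 0.14 with no filter. Counts were low for the 3 ligands, at or below 0.515 CPM, and for Gas1, at 83 to 239 counts. No paired analysis was possible because the labels carry no replicate numbers.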
